A study of Mus musculus with 12 samples.

Results

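The motile cilia genes are 60 of the 30743 rows of a count table from mouse lung tumour cells. They were chosen by symbol: axonemal dynein chains (Dnahc, Dnaic, Dnali), tektins (Tekt), radial spoke proteins (Rsph), sperm associated antigens (Spag), intraflagellar transport proteins (Ift), and 8 single genes, Foxj1, Hydin, Wdr52, Ccdc108, Ccdc39, Ccdc40, Ccdc113 and Ccdc114. The rule reads symbols and no values, but it was proposed with earlier results of these data known. All 60 had at least 1 count in some library. By role, 40 members are axonemal or act on the axoneme (Foxj1 included), 12 are intraflagellar transport (IFT) genes and 8 are Spag genes outside the axoneme or of unsure place there. The roles were assigned by textbook knowledge, and the pooling of roles into these 3 sets was made after the counts had been seen.

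RNA was measured in 12 libraries of cancer cells sorted from lung tumours of mice of mixed BL6/129 strain. The groups were KT;Lkb1f/f tumours, called Lkb1-deleted here after the design text (3 libraries), KT;H11LSL-Cas9 tumours titled sgSik1 (3 libraries) or sgSik1-3 (2 libraries), and KT tumours (4 libraries). All groups carry the KT alleles; f/f marks floxed Lkb1 (Stk11) alleles, and H11LSL-Cas9 is a Cas9 allele silent until Cre acts, here used with guides named for Sik genes. The genotype label gives the 5 libraries with Cas9 the same genotype, and they are called Sik-targeted as 1 group. What the range in sgSik1-3 covers, the age of the mice and whether 1 mouse gave more than 1 library are not stated in the fields used, so p-values rest on the spread of libraries alone, and that spread may be technical. Alternative names in the labels give lentiviral Cre for KT replicates 2, 3 and 4 and no Cre for KT replicate 1. Blood, immune and endothelial cells were stained (Ter119, CD45, F4/80 and CD31) and sorted away.

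Motile cilia are beating hairs, carried in the lung by the multiciliated cells of the airways. Their core, the axoneme, is a ring of microtubule doublets around a central pair; dynein arms bound to the doublets slide them against each other, and radial spokes and the central pair set the rhythm. Foxj1 is the transcription factor that switches on this program. IFT trains carry cargo along the axoneme and are also needed in primary cilia, the single sensory cilia of many other cell types, so IFT genes are not particular to motile cilia.

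Library totals ran from 3847760 to 13955181 counts, and 3 counts, the floor used here, amount to 0.164 to 0.853 CPM (counts per 1000000) in single libraries. CPM are on library sizes scaled by trimmed mean of M values (TMM). Stk11 stood at 9.23, 16.6 and 9.92 CPM in Lkb1-deleted libraries, against 44.7, 39.1, 41.0 and 31.0 CPM in KT libraries (log2 -1.705, SE 0.545, edgeR adjusted p = 0.160). Sik1 was at 112 to 514 CPM in sgSik1 and 105 and 266 CPM in sgSik1-3 libraries, against 38.2 to 59.6 CPM in KT libraries (Sik-targeted log2 2.24, SE 0.45, adjusted p = 0.00780). Sik2 rose as well (log2 1.22, SE 0.34, adjusted p = 0.0328), and Sik3 fell, with 9.17 to 21.0 CPM in sgSik1 and 8.74 and 11.9 CPM in sgSik1-3 libraries, against 26.9 to 46.7 CPM in KT libraries (Sik-targeted log2 -1.33, SE 0.34, adjusted p = 0.0209). In Lkb1-deleted libraries the log2 changes of Sik1 and Sik2 were 1.85 and 1.53 (edgeR adjusted p = 0.0852 and 0.0692). Whether the levels in Sik-targeted libraries follow editing at the guides' sites was not tested. KT replicates 2 and 3 stood apart from the other libraries: 998 and 1063 of 1428 olfactory and vomeronasal receptor genes, genes of the sensory neurons of the nose, had a count there, against 14 to 58 of them in the other 10 libraries. In all, 23582 and 23747 genes had a count in these KT libraries, against 14283 to 16533 in the other 10. Of 16 genes known from the testis 13 and 12 had a count in them, with sums of 8.26 and 9.88 CPM, against 0 to 6 genes and at most 2.13 CPM elsewhere. The counts of calls and the axonemal sum are therefore also given without these libraries.

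Foxj1 and the RFX factors, which bind a palindrome called the X-box, are the known drivers of these genes, so stretches of promoters that hold a palindrome are shown first. Members with the palindrome were not all near 0 outside KT, nor do all members near 0 there hold it: Dnahc5 and Spag17, which were near 0 there, lack it, and Tekt2, which holds it, had 2.84 CPM in sgSik1 replicate 1, against 0 to 1.12 CPM in KT libraries. RefSeq windows from 250 bases before to 50 bases after the start (GRCm38.p6) could be matched for 48 of the 60 members and 34 of the 40 axonemal members; Foxj1 is not among them. In the lines below the capitals mark the palindrome GTTGC, 3 or 4 bases, GCAAC.

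Hydin (chr8:110266938-110266976, + strand): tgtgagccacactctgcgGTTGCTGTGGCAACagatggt
Wdr52 (chr16:44394754-44394798, + strand): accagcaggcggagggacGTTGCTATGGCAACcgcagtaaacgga
Dnahc6 (chr6:73221637-73221685, - strand): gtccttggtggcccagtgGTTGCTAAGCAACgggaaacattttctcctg
Dnahc7a (chr1:53706811-53706859, - strand): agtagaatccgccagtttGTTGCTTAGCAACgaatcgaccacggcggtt
Dnahc7b (chr1:46066811-46066852, + strand): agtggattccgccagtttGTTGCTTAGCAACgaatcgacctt
Dnaic2 (chr11:114727368-114727416, + strand): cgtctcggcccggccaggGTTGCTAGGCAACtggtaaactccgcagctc
Tekt2 (chr4:126325689-126325735, - strand): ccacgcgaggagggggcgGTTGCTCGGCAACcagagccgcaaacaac
Tekt4 (chr17:25471536-25471584, + strand): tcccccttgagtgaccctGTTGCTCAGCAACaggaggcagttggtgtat

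In these 8 stretches the palindrome begins 21 to 57 bases before a RefSeq start, at 21 bases in Hydin and 27 in Wdr52. With 3 to 5 bases between its arms, the palindrome was in the windows of 9 of 34 axonemal members (26.5%) and of 0.488% of the 27025 genes with a window. The spelling was chosen after the member sequences had been read and after another spelling of the X-box had found no axonemal member. The count is therefore a description of these 34 windows and gives no support beyond them. The ninth gene, Rsph3b, has its match after the start, and Dnahc7a and Dnahc7b are near copies of each other, which count as separate genes. Searches on both strands with the other spellings gave different counts. The X-box spelling tried first, GTTNCC and GGNAAC with 1 to 3 bases between, was in 0 of 34 axonemal windows and 0.903% of all genes. Among all members it was in Ift57 alone. The single arm GTTGCC, which overlaps the palindrome in several windows, was in 13 of 34 (38.2%) and in 14.1% of all genes. The forkhead spelling TGTTTAC was in 2 of 34 (5.88%) and in 4.05% of all genes. A match is a run of letters and not a shown binding site.

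Taken as a whole, the 40 axonemal members were low in every library other than KT. Their summed level was 21.3, 26.1 and 35.8 CPM in Lkb1-deleted libraries, 40.4, 32.2 and 27.6 CPM in sgSik1 libraries and 13.0 and 19.2 CPM in sgSik1-3 libraries, against 125, 214, 194 and 92.5 CPM in KT libraries. The means were 27.7 ± 7.41 (SD, n = 3), 33.4 ± 6.46 (SD, n = 3) and 16.1 ± 4.38 CPM (SD, n = 2), against 156 ± 57.1 CPM in KT (SD, n = 4). Dnahc2 alone made up 17.1 of the 40.4 CPM in sgSik1 replicate 1 and 10.5 of the 27.6 CPM in sgSik1 replicate 3. No library outside KT reached the lowest KT library. The same held when CPM were computed on total counts, where the sums were 9.71 to 36.3 CPM outside KT and 105 to 362 CPM in KT. Libraries outside KT had a count for 16 to 35 of the 40 genes, KT libraries for 35 to 40. In bulk RNA, fewer ciliated cells and less RNA per cell cannot be told apart.

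**Figure D1:**
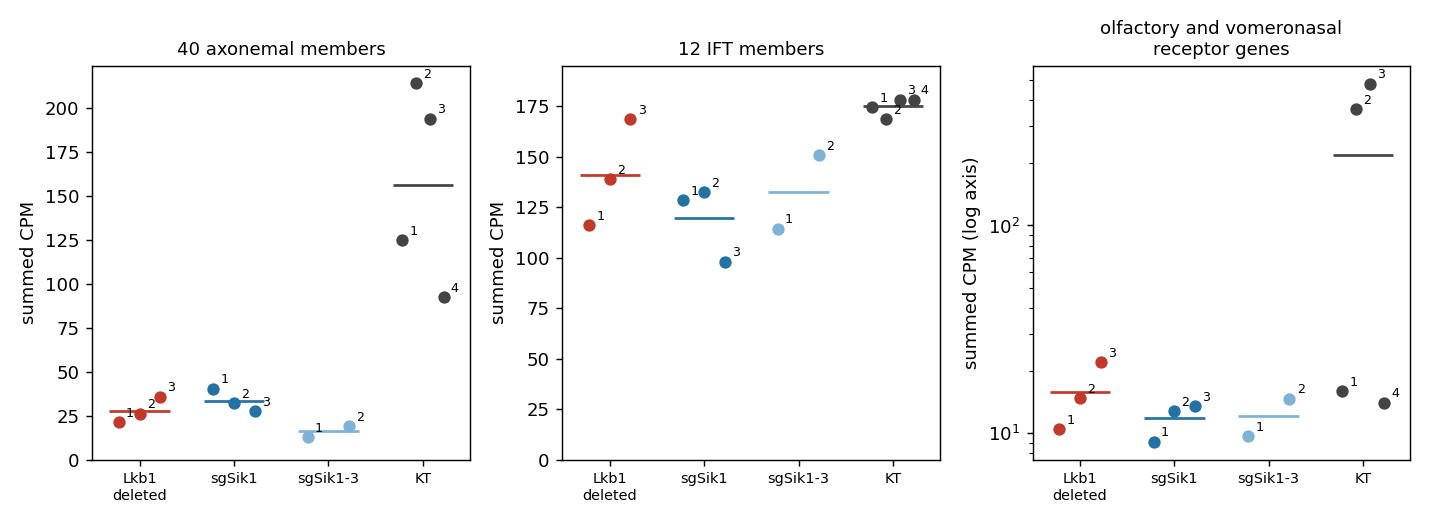
Summed CPM per library (points, numbered by replicate; bars are group means) of the 40 axonemal members, the 12 IFT members and 1428 olfactory and vomeronasal receptor genes, the last on a log axis. The axonemal sums of KT libraries (92.5 to 214 CPM) lie above all others. Their IFT sums do too, but differ less (168.5 to 178.3 CPM, against 98.0 to 168.4 CPM). KT replicates 2 and 3 alone have receptor sums of 363 and 482 CPM.

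The tests used edgeR's quasi-likelihood fit over all genes, with Benjamini-Hochberg adjusted p under 0.05 as the threshold. Of the 60 members, 49 passed the filter on low counts in the genotype fit; members that passed mostly through KT had to be lower elsewhere, so the counts below describe the tested members. In Lkb1-deleted against KT libraries 7 of the 49 fell and 0 rose, where 0.552% of all 13575 tested genes fell and 0.611% rose. In Sik-targeted against KT libraries 24 of the 49 fell and 0 rose, where 6.56% of all tested genes fell and 5.81% rose. The median log2 change of the tested members was -1.54 (Lkb1-deleted) and -2.37 (Sik-targeted), against -0.04 and -0.03 over all tested genes. Both comparisons use the same 4 KT libraries. Without KT replicates 2 and 3 the counts were 0 and 2 of 45 members, and over all 13252 genes then tested 2 and 61 genes fell.

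**Figure D2:**
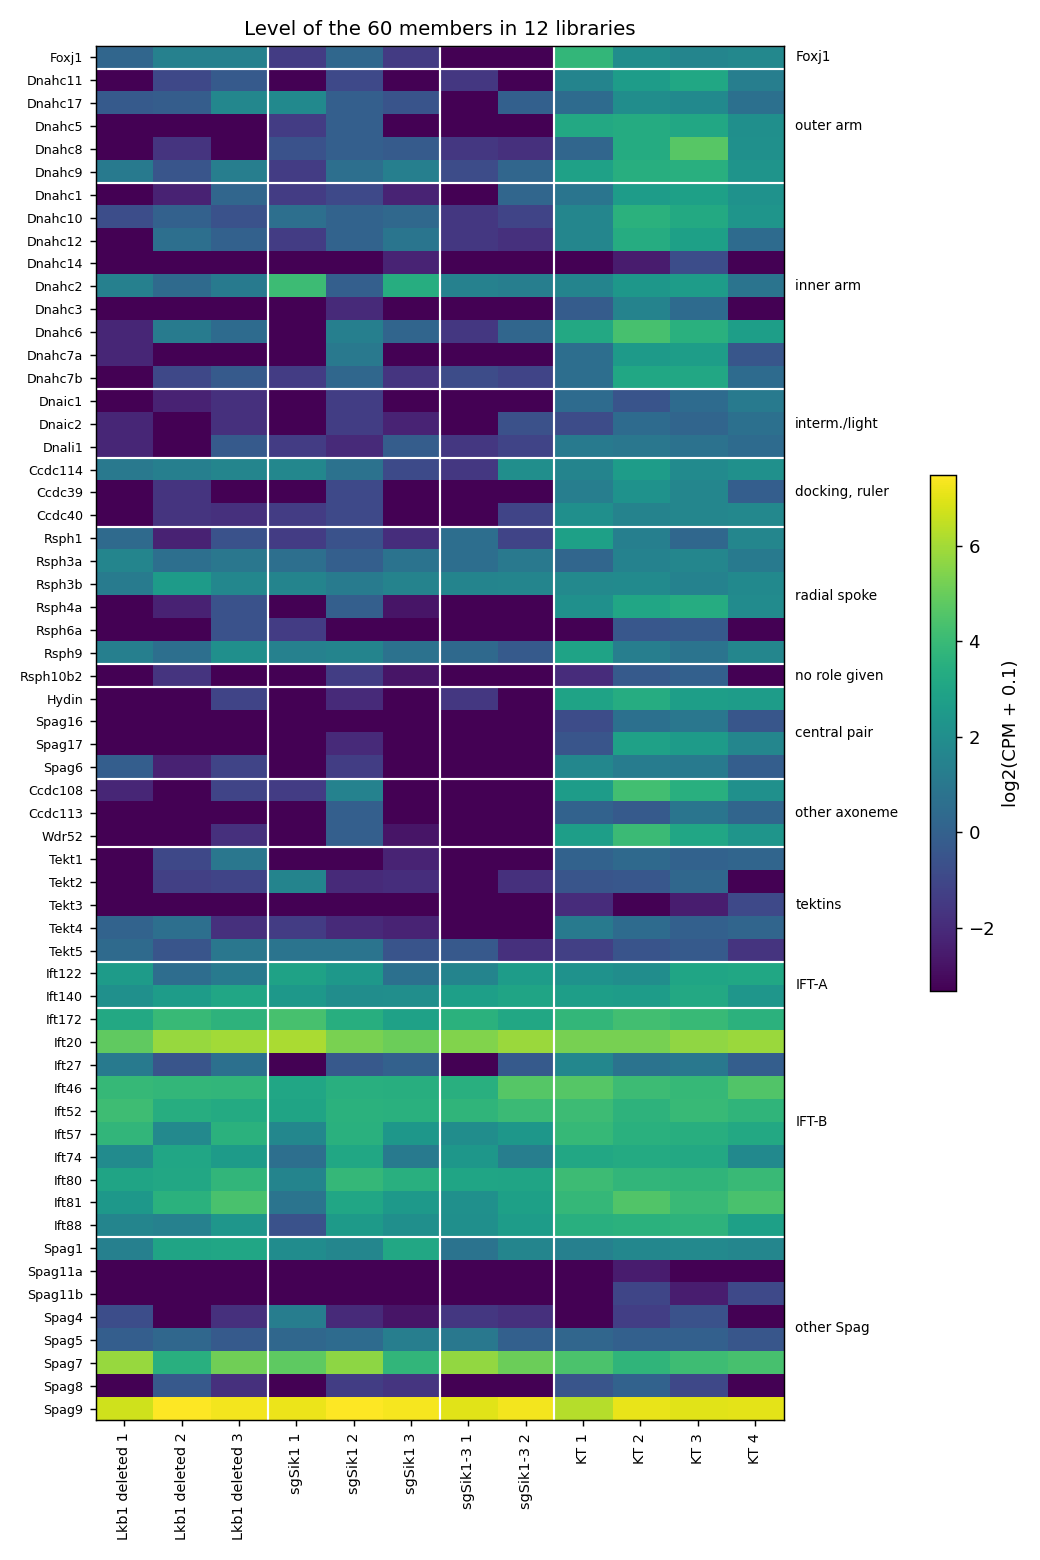
Levels of all 60 members (rows, ordered by role) in the 12 libraries (columns) as log2(CPM + 0.1), from dark (0 counts) to yellow. Many dynein rows and the Hydin and Spag17 rows are dark outside the 4 KT columns, but not those of Dnahc2 (17.1 CPM in sgSik1 replicate 1), Dnahc17, Rsph3a, Rsph3b and Rsph9. The Spag9 row is bright throughout (77.3 to 179 CPM), and among the IFT rows Ift81 ranges from 1.71 to 23.3 CPM.

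Foxj1, the regulator, fell in Sik-targeted libraries and did not pass the test in Lkb1-deleted libraries. It had 1.09, 2.57 and 2.57 CPM in Lkb1-deleted libraries, 0.284, 1.14 and 0.273 CPM in sgSik1 libraries and 0 counts in both sgSik1-3 libraries, against 14.3, 3.87, 2.89 and 3.18 CPM in KT libraries. All libraries outside KT were below the lowest KT library, and KT replicate 1 was far above the other KT libraries. The fall in Sik-targeted libraries passed the test (log2 -4.00, SE 0.83, edgeR adjusted p = 0.00848), and so did that of sgSik1 (log2 -3.37, SE 0.86, adjusted p = 0.0412). In sgSik1-3 libraries, 0 counts against 194 in KT put the level at least 17.1-fold lower, with the floor of 3 counts taken over the group (adjusted p = 0.0198). In Lkb1-deleted libraries the log2 change was -1.54 (SE 0.85, adjusted p = 0.473), and Lkb1-deleted set directly against Sik-targeted libraries gave log2 2.46 (SE 0.87, adjusted p = 0.253), which missed the threshold. Without KT replicates 2 and 3 the Sik-targeted change was -4.53 (adjusted p = 0.0455).

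Among the heavy chains of the outer dynein arms, the motors that set beat frequency, 2 of 5 fell in Lkb1-deleted and 4 of 5 in Sik-targeted libraries. Dnahc5 had 0 counts in all 3 Lkb1-deleted libraries, 0.284, 0.854 and 0 CPM in sgSik1 libraries and 0 in both sgSik1-3 libraries, against 9.13, 9.83, 8.83 and 4.03 CPM in KT libraries. No library outside KT reached 1 CPM, and no KT library was below 4 CPM. The 0 against 319 counts put Dnahc5 at least 67.3-fold lower in Lkb1-deleted libraries (adjusted p = 0.0220) and at least 28.1-fold lower in sgSik1-3 libraries (adjusted p = 0.0307); in Sik-targeted libraries together the log2 change was -5.12 (SE 0.92, adjusted p = 0.00571).

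Dnahc8 had 0, 0.206 and 0 CPM in Lkb1-deleted libraries, 0.568, 0.854 and 0.764 CPM in sgSik1 libraries and 0.236 and 0.181 CPM in sgSik1-3 libraries, against 1.10, 10.1, 25.5 and 4.24 CPM in KT libraries. The groups did not overlap, and KT libraries spread widely, with replicate 3 the highest and replicate 1 little above sgSik1. Both falls passed the test (2 counts against 479 in Lkb1-deleted, a ratio of KT over Lkb1-deleted of 152 with a 95% interval of 41.8 to 1256 for counting error only, adjusted p = 0.0197; log2 -4.18 in Sik-targeted, SE 0.80, adjusted p = 0.00624). KT replicates 2 and 3 held 135 and 317 of the 479 counts. Without these libraries neither fall of Dnahc8 passed (log2 -4.77, edgeR adjusted p = 0.366, in Lkb1-deleted, and -2.28, adjusted p = 0.291, in Sik-targeted). Dnahc9 and Dnahc11, the other outer arm chains named, fell in Sik-targeted libraries (log2 -2.77, SE 0.57, adjusted p = 0.00821, and -5.22, SE 1.01, adjusted p = 0.00652). In Lkb1-deleted libraries their log2 changes were -2.35 and -3.75 (adjusted p = 0.114 and 0.118). Dnahc17 was the fifth chain and passed in neither comparison.

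Of the 9 inner arm heavy chains, which shape the bend, 8 were tested; 1 fell in Lkb1-deleted and 6 in Sik-targeted libraries. Dnahc10 had 0.486, 0.926 and 0.551 CPM in Lkb1-deleted libraries, 1.42, 0.996 and 1.15 CPM in sgSik1 libraries and 0.236 and 0.362 CPM in sgSik1-3 libraries, against 2.99, 11.8, 9.31 and 4.88 CPM in KT libraries. It passed in both genotype comparisons (log2 -3.43, SE 0.71, adjusted p = 0.0377 in Lkb1-deleted; -3.08, SE 0.57, adjusted p = 0.00514 in Sik-targeted). Dnahc6 had 0.122 to 2.16 CPM in Lkb1-deleted and 0 to 2.42 CPM in Sik-targeted libraries, against 6.58 to 20.2 CPM in KT libraries, and passed in Sik-targeted libraries (log2 -3.51, SE 0.73, adjusted p = 0.00863) but not in Lkb1-deleted libraries (log2 -3.30, SE 0.88, adjusted p = 0.0949).

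Dnahc2, another inner arm chain, passed in neither comparison. It had 2.55, 1.23 and 2.02 CPM in Lkb1-deleted libraries, 17.1, 0.854 and 10.5 CPM in sgSik1 libraries and 2.60 and 2.35 CPM in sgSik1-3 libraries, against 2.83, 5.21, 6.26 and 1.70 CPM in KT libraries. Replicates 1 and 3 of sgSik1 were above every KT library and sgSik1 replicate 2 was below every KT library. Its log2 change was 0.70 in Sik-targeted (SE 0.70, adjusted p = 0.546) and -1.07 in Lkb1-deleted libraries (SE 0.82, adjusted p = 0.644).

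Of 6 tested genes for smaller dynein subunits and for proteins that seat or space the arms, 0 fell in Lkb1-deleted and 3 in Sik-targeted libraries (Dnaic1, Ccdc39 and Ccdc40). Dnaic1, an intermediate chain, had 0 to 0.184 CPM in Lkb1-deleted and 0 to 0.285 CPM in Sik-targeted libraries, against 0.596 to 2.12 CPM in KT libraries (Sik-targeted log2 -4.16, SE 1.09, adjusted p = 0.0244; Lkb1-deleted log2 -3.66, adjusted p = 0.186). Ccdc40, which with Ccdc39 rules the spacing along the doublet, had 0 to 0.206 and 0 to 0.427 CPM, against 2.75 to 4.09 CPM in KT libraries (Sik-targeted log2 -3.96, SE 0.90, adjusted p = 0.0128; Lkb1-deleted log2 -4.51, adjusted p = 0.0710). Dnali1, an inner arm light chain, and Ccdc114, a docking protein, passed in neither comparison: their log2 changes were -2.70 and -0.79 in Lkb1-deleted and -2.03 and -1.22 in Sik-targeted libraries.

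Of 3 tested central pair members, 2 fell in Lkb1-deleted and 3 in Sik-targeted libraries. Hydin, a giant central pair protein, had 0, 0 and 0.367 CPM in Lkb1-deleted libraries, 0, 0.142 and 0 CPM in sgSik1 libraries and 0.236 and 0 CPM in sgSik1-3 libraries, against 7.55, 10.1, 6.66 and 6.15 CPM in KT libraries. KT libraries varied little for it and every other library was below its own floor. The pooled counts were 2 in Lkb1-deleted and 2 in Sik-targeted libraries against 296 in KT, which gives ratios of KT over each of 93.7 (95% interval 25.7 to 777) and 155 (42.5 to 1283); the adjusted p-values were 0.0177 and 0.000986. Without KT replicates 2 and 3 Hydin passed in Sik-targeted (adjusted p = 0.0253) but not in Lkb1-deleted libraries (adjusted p = 0.306). Spag17 had 0 counts in Lkb1-deleted and 1 in Sik-targeted libraries, against 0.629, 7.22, 6.02 and 2.97 CPM in KT libraries, with KT replicate 1 just above its floor of 0.472 CPM. It was at least 40.1-fold lower in Lkb1-deleted libraries (adjusted p = 0.0290), and in Sik-targeted libraries the ratio of KT over them was 199 (95% interval 35.2 to 7884, adjusted p = 0.00367).

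Wdr52 and Ccdc108 are further axonemal proteins. Wdr52 had 0, 0 and 0.184 CPM in Lkb1-deleted libraries, 0, 0.854 and 0.0546 CPM in sgSik1 libraries and 0 in both sgSik1-3 libraries, against 6.61, 16.4, 8.43 and 4.88 CPM in KT libraries. No library outside KT reached 1 CPM. Its ratio of KT over Lkb1-deleted was 247 (95% interval 44.1 to 9777, adjusted p = 0.0184), and in Sik-targeted libraries the log2 change was -5.44 (SE 0.89, adjusted p = 0.00274). Ccdc108 had 0.122, 0 and 0.367 CPM in Lkb1-deleted libraries, 0.284, 2.70 and 0 CPM in sgSik1 and 0 in both sgSik1-3 libraries, against 6.14, 18.5, 11.2 and 4.24 CPM in KT libraries (Sik-targeted log2 -4.00, SE 1.05, adjusted p = 0.0246; at least 39.3-fold lower in sgSik1-3, adjusted p = 0.0488).

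**Figure D3:**
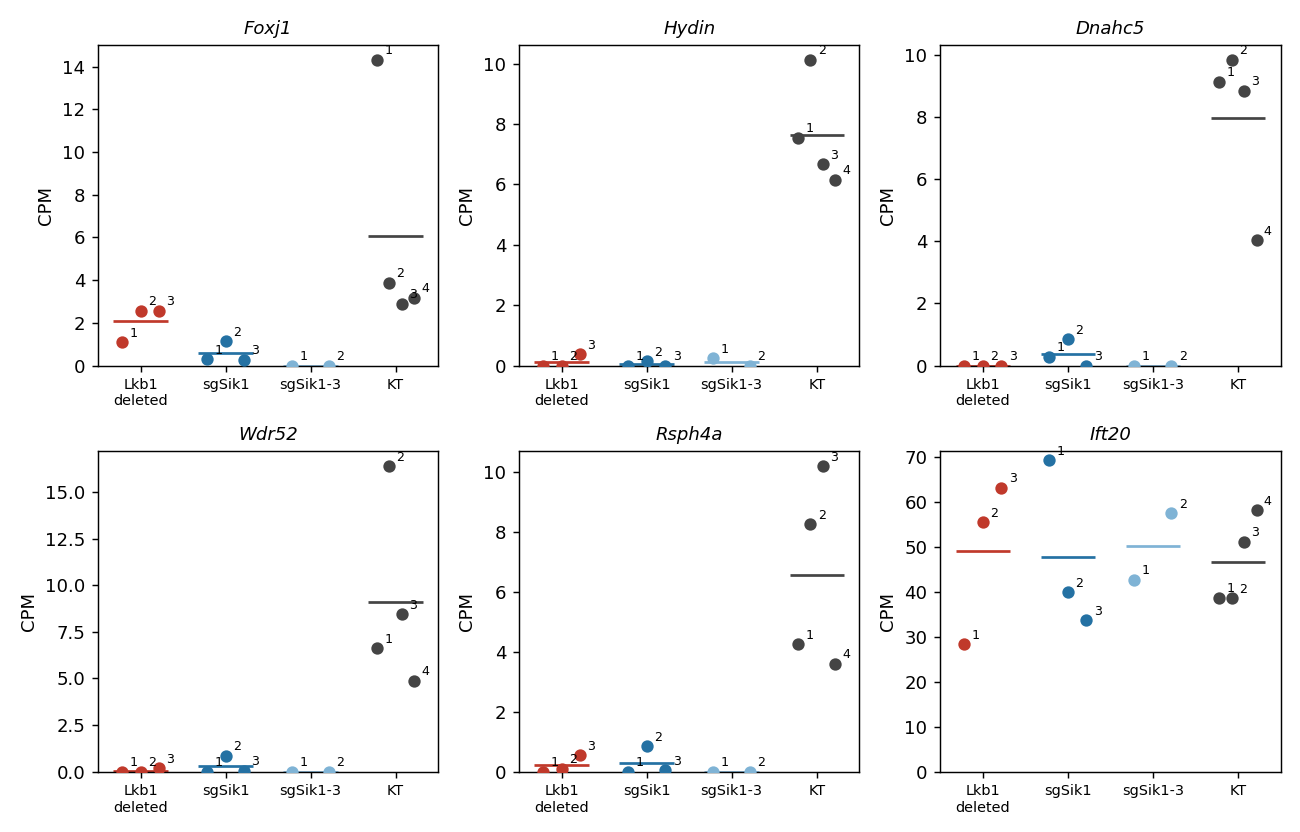
CPM per library (points, numbered by replicate; bars are group means) of Foxj1, Hydin, Dnahc5, Wdr52, Rsph4a and Ift20, each on its own linear axis from 0. Outside KT the first 5 are below 1.2 CPM in each library, apart from Foxj1 in Lkb1-deleted replicates 2 and 3 (2.57 CPM each), while Ift20 spans 28.4 to 69.3 CPM with no split by group.

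Of 5 tested radial spoke members 1 fell in Lkb1-deleted and 2 in Sik-targeted libraries, and of 3 tested tektins 0 and 2. Rsph4a, a spoke head protein, had 0, 0.103 and 0.551 CPM in Lkb1-deleted and 0 to 0.854 CPM in Sik-targeted libraries, against 4.25, 8.26, 10.2 and 3.61 CPM in KT libraries, and fell in both (log2 -5.04, SE 1.17, adjusted p = 0.0497; -4.97, SE 0.95, adjusted p = 0.00597). Rsph9, also of the spoke head, had log2 changes of -0.47 (adjusted p = 0.830) and -1.02 (adjusted p = 0.265) in Lkb1-deleted and Sik-targeted libraries. Rsph3b, a spoke stalk protein with a near copy, Rsph3a, had 2.19 to 6.07 CPM in Lkb1-deleted and 2.14 to 2.90 CPM in Sik-targeted libraries, against 2.65 to 3.50 CPM in KT libraries (log2 0.25 and -0.25). Its groups overlapped and its level did not split KT from the rest.

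Tektins are filament proteins of the doublet wall. Tekt4 had 0.972, 1.44 and 0.184 CPM in Lkb1-deleted libraries and 0 to 0.284 CPM in Sik-targeted libraries, against 2.05, 1.27, 0.883 and 1.06 CPM in KT libraries. It fell in Sik-targeted libraries (log2 -3.48, SE 0.89, adjusted p = 0.0220), and Lkb1-deleted libraries overlapped KT (log2 -0.54, adjusted p = 0.848). Lkb1-deleted set against Sik-targeted libraries gave log2 2.94 (SE 0.94, adjusted p = 0.211). Tekt5, known mainly from sperm, had 0.617 to 1.84 CPM in Lkb1-deleted and 0.181 to 1.71 CPM in Sik-targeted libraries, against 0.212 to 0.723 CPM in KT libraries (log2 1.28 and 0.96, adjusted p = 0.562 and 0.441).

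The IFT genes differed less. Their summed level was 116 to 168.4 CPM in Lkb1-deleted, 98.0 to 133 CPM in sgSik1 and 114 and 151 CPM in sgSik1-3 libraries. In KT libraries it was 168.5 to 178 CPM, so every KT library was above all others, the lowest by little. Of the 12 log2 changes 11 were below 0 in both genotype comparisons, where 52.3% and 51.9% of all tested genes were. None of the 12 fell in Lkb1-deleted libraries by edgeR, DESeq2 or limma-voom, 1 was lower at an unadjusted p under 0.05 (Ift88; 6.72% of all genes were), and 1 fell in Sik-targeted libraries: Ift81, of the B complex, at log2 -1.78 (SE 0.44, adjusted p = 0.0188), named after its values were seen. Ift20, which sits at the Golgi as well as on the trains, had log2 changes of 0.07 and 0.06 (SE 0.35 and 0.31). Those of Ift46 were -0.47 and -0.60, those of Ift122 -0.97 and -0.43, and those of Ift140 -0.13 and -0.31, all with adjusted p of 0.264 or more. Of the 8 other Spag genes 4 were tested, and none passed in either comparison, although all 4 log2 changes were above 0 in both: Spag9, a JNK scaffold, had log2 changes of 0.31 and 0.37, and Spag7 of 0.91 and 0.98.

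**Figure D4:**
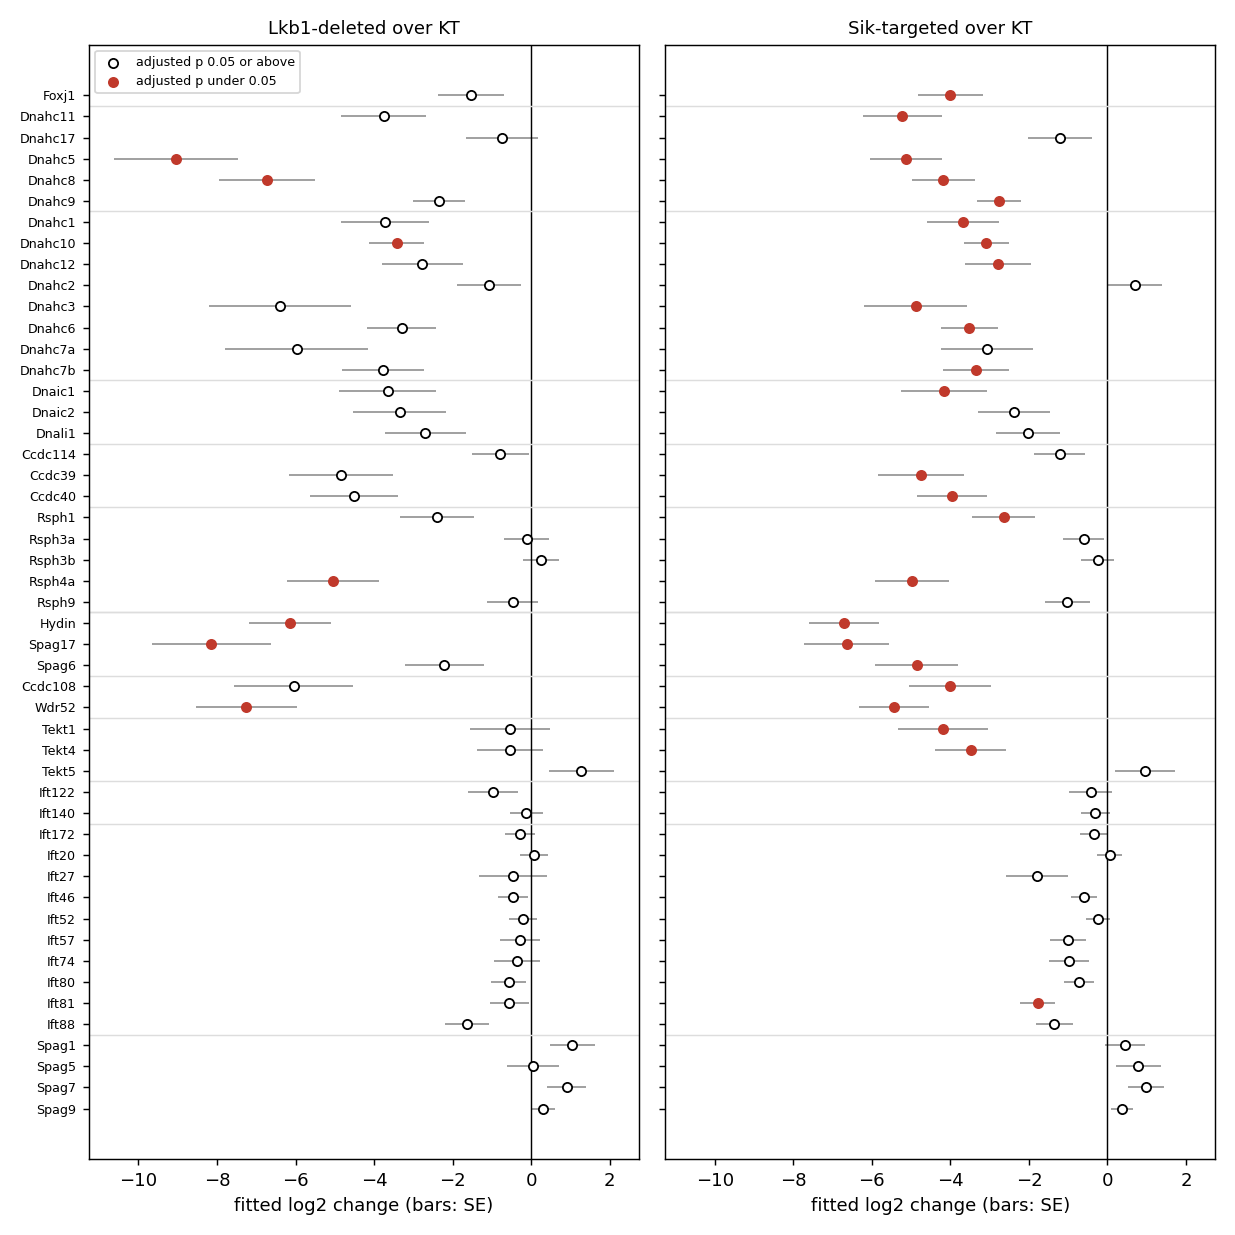
Fitted log2 change (points; bars are SE) of the tested members by role, Lkb1-deleted over KT on the left and Sik-targeted over KT on the right; filled points have an adjusted p under 0.05. Dynein, central pair and Ccdc rows lie mostly between -2 and -9. The IFT rows are less far below 0 (medians -0.42 and -0.66), with Ift81 filled on the right. Fitted values of genes with 0 counts in a group depend on the fit and are not bounds.

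Over the 33 tested axonemal members, 7 fell in Lkb1-deleted and 23 in Sik-targeted libraries, and the median log2 change was -3.35 and -3.51; setting the 3 genes with no counts in Lkb1-deleted libraries to their bound left the median at -3.35. Of the 12 IFT members 0 and 1 fell, with medians of -0.42 and -0.66. A direct comparison of Lkb1-deleted with Sik-targeted libraries called 0 of 49 members by edgeR (0.221% of all genes were called), and 6 members had an unadjusted p under 0.05 (12.7% of all genes); DESeq2 and limma-voom also called 0. In the fit by title group, 10 of 51 tested members fell in sgSik1 libraries (1.13% of all 15303 genes fell) and 8 of 51 in sgSik1-3 libraries (1.15%). None rose in either by edgeR, where 2.71% and 1.74% of all genes rose. The comparison of sgSik1-3 with sgSik1 libraries called 0 of 51 members and 0% of all genes by edgeR, with 2 members at an unadjusted p under 0.05 (3.45% of all genes), and DESeq2 and limma-voom also called 0 members. Genes whose groups did not overlap gave 21 of 49 members lower in Lkb1-deleted (8.3% of all genes), 23 of 49 in Sik-targeted (8.79%), 28 of 51 in sgSik1 (10.6%) and 33 of 51 in sgSik1-3 libraries (20.9%).

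These calls lean on single libraries, above all KT replicates 2 and 3. So do calls over all genes: without KT replicate 2 and without KT replicate 3, 7 and 6 genes fell in Lkb1-deleted libraries in place of 75, and 307 and 341 in Sik-targeted libraries in place of 890. In Lkb1-deleted libraries 0 members passed without KT replicate 2 and 0 without KT replicate 3. It was 3 to 5 members without any 1 of the Lkb1-deleted libraries, KT replicate 1 or KT replicate 4, or sgSik1-3 replicate 2. Over all genes 18 to 50 fell in these latter fits. In Sik-targeted libraries 12 and 13 passed without KT replicate 2 and without KT replicate 3. Of the members named here, only Hydin and Foxj1 passed in Sik-targeted libraries, and none in Lkb1-deleted, sgSik1 or sgSik1-3 libraries, once both were left out. In sgSik1 libraries the count was 1 without sgSik1 replicate 1, sgSik1 replicate 3, KT replicate 2 or KT replicate 3. It was 5 and 6 without KT replicates 1 and 4, each left out alone, and 16 without Lkb1-deleted replicate 1. In the order of these fits 30, 36, 39, 55, 87, 107 and 495 of all genes fell, in place of 173. In sgSik1-3 libraries the count was 1 without KT replicate 2 or KT replicate 3 and 4 without KT replicate 1 or KT replicate 4. It was 13 without Lkb1-deleted replicate 1 or sgSik1 replicate 2. In the order of these fits 54, 48, 72, 72, 534 and 314 of all genes fell, in place of 176. Without either of its own 2 libraries the group keeps 1 library, so no count is given for those fits here.

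Levels of the axonemal members went with their exon length in KT replicates 2 and 3. The rank correlation over 38 members was -0.20 to 0.17 in the 8 libraries outside KT, 0.23 and 0.48 in KT replicates 1 and 4, and 0.69 and 0.73 in KT replicates 2 and 3; the points of each value share 1 library, and no test was made. Per kilobase of exon, the axonemal members stood 24.6 to 83.5 times as high as the olfactory and vomeronasal genes in the 8 libraries outside KT, 148 and 124 times as high in KT replicates 1 and 4, and 11.2 and 7.61 times as high in KT replicates 2 and 3. The axonemal sum was 26.9 ± 9.06 CPM in the 8 libraries outside KT (SD, n = 8), against 109 ± 22.9 CPM in KT replicates 1 and 4, which lack the receptor counts (SD, n = 2). In 19 of the 33 tested axonemal members all 8 libraries outside KT were below both of these KT libraries, as they were for 5.94% of all tested genes. Without KT replicates 2 and 3 the axonemal median log2 change was -2.62 in Lkb1-deleted and -2.38 in Sik-targeted libraries, over 29 tested members. The part of whatever sets these KT libraries apart in the calls was not tested.

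**Figure D5:**
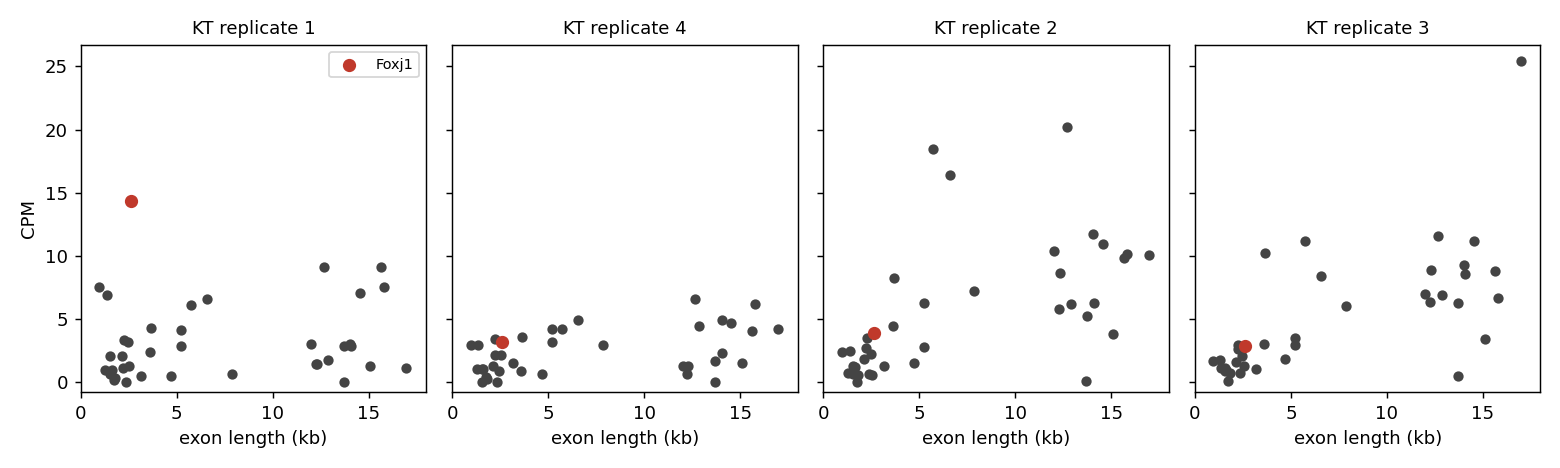
CPM against exon length (kb, GENCODE M21) of 38 axonemal members in KT replicates 1, 4, 2 and 3; Foxj1 in red. Long genes stand higher in replicates 2 and 3, and in KT replicate 1 Foxj1 (14.3 CPM) is the highest of all.

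Other genes of the cilium, from lists written down by role, fell as well in part. Over all 13575 tested genes 0.552% fell in Lkb1-deleted and 6.56% in Sik-targeted libraries. Of 11 tested transcripts of ciliated airway cells 4 fell in Lkb1-deleted and 10 in Sik-targeted libraries: Ccdc153 had 0, 0 and 0.184 CPM in Lkb1-deleted and 0 to 0.142 CPM in Sik-targeted libraries, against 4.56, 4.32, 2.41 and 1.27 CPM in KT libraries (log2 -5.70 and -6.20, SE 1.21 and 1.04, adjusted p = 0.0395 and 0.00319). Of 24 further axoneme genes 2 and 11 fell, among them Spef2 (log2 -6.55 in Sik-targeted, SE 1.02, adjusted p = 0.00281), a protein of the central pair. Of 6 dynein assembly factors 1 and 3 fell, among them Zmynd10 in Sik-targeted libraries (log2 -4.80, SE 0.94, adjusted p = 0.00690). Outside KT, Ccdc153, Spef2 and Zmynd10 were below the floor in every library, so the sizes of these fitted changes are uncertain. Of 9 regulators of multiciliated cells 0 and 1 fell, and of 29 primary cilium genes 0 and 1 (Bbs9). The counts of regulators and of primary cilium genes are near the shares over all genes. Foxj1's closest match over the 12 libraries among 12532 genes was Bmf (Spearman 0.98), then Epdr1, Tspyl4, Adora2b and Tacc1; Hydin's were Snhg11 (0.96), Sult1a1, Ikzf1, Ccdc153 and Vwa3a, as descriptions without a test.

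Markers of other cells moved as well, where 0.552% (Lkb1-deleted) and 6.56% (Sik-targeted) of all tested genes fell. Of 8 markers of club cells, the secretory cells of the airways, 1 fell in Lkb1-deleted and 5 in Sik-targeted libraries, and their sum was 177 to 230 CPM in Lkb1-deleted and 177 to 941 CPM in Sik-targeted libraries, against 451 to 3519 CPM in KT libraries. Scgb1a1, the main club cell secretion, had 3.31 to 28.4 and 8.74 to 59.8 CPM, against 334 to 2871 CPM in KT libraries. Of the 8 log2 changes 7 were below 0 in each genotype comparison. Most of the club sum in every library outside KT was Hp. It had 109 to 172 CPM in Lkb1-deleted and 150 to 896 CPM in Sik-targeted libraries, against 286, 47.9, 45.2 and 66.2 CPM in KT libraries. Of 7 tested leukocyte and macrophage genes 4 and 5 fell, with sums of 706 to 2027 and 84.5 to 1071 CPM against 5708 to 13614 CPM in KT libraries. Between 78.1% and 99.4% of that sum was Lyz2, a lysozyme that alveolar type 2 cells make too. Without Lyz2, a choice made after its share was seen, 4 of 6 genes fell in either comparison (Ctss, Chi3l3, Itgax and Ptprc), and the sums were 8.87 to 13.3 CPM in Lkb1-deleted and 9.25 to 21.3 CPM in Sik-targeted libraries, against 67.1 to 1056 CPM in KT libraries. Of 10 markers of alveolar type 2 cells 0 and 4 fell, and of 6 epithelial genes 3 rose in Sik-targeted libraries, where 5.81% of all tested genes rose. All 11 defining ciliated cell markers had a count in each KT library, and 2 to 9 of them in the others. The 11 include the members Foxj1, Rsph1, Tekt1 and Hydin, so this count shares genes with the axonemal result. Sntn and Fam183b were at 0 in all 3 Lkb1-deleted libraries, and Ccdc153, Fam183b and Sntn in both sgSik1-3 libraries. Not all markers were low: Tppp3 had 1.34, 12.6 and 17.6 CPM in Lkb1-deleted libraries, against 10.5 to 26.7 CPM in KT libraries. Tekt1, named after its values were seen, had 0, 0.412 and 1.84 CPM in Lkb1-deleted libraries, against 0.944 to 1.19 CPM in KT libraries. The part of the club and leukocyte differences in the axonemal result was not tested.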

How the data were processed

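The authors deposited 1 table of read counts by gene symbol, and its 12 library columns were matched to samples by title. Per the submitters' processing notes, STAR 2.4.2a, HTSeq and the mm10 genome were used; which annotation was used, and whether counting used strand, is not given in the sources used here, so overlapping and antisense genes cannot be told apart. Reads of near copies (Dnahc7a and Dnahc7b, Rsph3a and Rsph3b, Spag11a and Spag11b, Spag6) may be split or lost, and their values are uncertain. Per the labels, RNA was amplified to cDNA before library preparation and read pairs of 100 bases were sequenced; counts carry no molecule tags, so intervals and floors cover counting error only.

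Tests across genes used edgeR 4.0.16 with R 4.3.3 (TMM, filterByExpr by group, robust quasi-likelihood F test, 2-sided, Benjamini-Hochberg over all tested genes). The Lkb1-deleted and Sik-targeted comparisons came from 1 fit of 3 genotype groups (13575 genes), those of the title groups from a fit of 4 groups (15303 genes), so that all libraries share 1 estimate of the spread. The SE is the absolute log2 change over the square root of F. Where a group had 0 counts, folds are bounds from a floor of 3 counts over the group. For members with 1 to 3 counts in a group, the ratio of effective-size-scaled sums is given with its exact 95% binomial interval. Genes of the other lists are given by fitted log2 changes. Alternatives were DESeq2 1.42.0, limma-voom (limma 3.58.1), RLE factors, no filter, fewer groups, a replicate block, each library left out and KT replicates 2 and 3 left out.

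Symbols were matched to RefSeq (GRCm38.p6, promoters) and GENCODE M21 (GRCm38, the build of the files, exon lengths): 43 members by symbol, 15 by an older symbol and 2 not. The members and lists were chosen with earlier results of these data known. The text names Foxj1, up to 10 called members with the smallest adjusted p per comparison, and the 2 highest members of each role; others are given by counts and ranges, and exceptions are marked. Of the other lists the rule takes up to 4 called genes and the 3 highest, and the text names some of these. In the genotype comparisons 0 of the 4 tested endothelial and erythroid genes were called, and none of the 16 testis genes passed the filter on low counts, so they were not tested there.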

Additional observations from a re-analysis of the deposited data

Results flagged for a closer look

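Among 62 sets of values looked at (28 named members and 3 sums, in the 5 Sik-targeted and the 4 KT libraries), 11 held a library far from the others of its group. The limit used gives about 1 set in 20 for independent, normally spread values. Many of these sets are counts near 0 and the sets share libraries, so that rate does not apply. Whether 11 is more than would be usual was not tested. Of the 11, 9 were sgSik1 replicate 2. It had the highest Sik-targeted value of Ccdc108 (2.70 CPM, next 0.284), Foxj1 (1.14 CPM, next 0.284), Rsph4a and Wdr52 (0.854 CPM each, next 0.0546), Dnaic1 (0.285 CPM, next 0), Spag17 (0.142 CPM, next 0), Rsph10b2 (0.285 CPM, next 0.0546) and the summed other Spag genes (233 CPM, next 193), and the lowest of Rsph3b (2.14 CPM, next 2.78). Several of these values are 1 or a few counts. Without that library 8 members passed in Lkb1-deleted, 25 in Sik-targeted and 14 in sgSik1 libraries. Over all genes 83, 1151 and 385 then fell, in place of 75, 890 and 173. Foxj1 in KT replicate 1 (14.3 CPM, next 3.87) and Ift46 in sgSik1-3 replicate 2 (24.6 CPM, next 11.3) were the others.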

How the results depend on the processing

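The count of members that passed moved by more than 1.5 times under these settings. In Lkb1-deleted against KT libraries it was 7, and 16 with DESeq2, 12 with limma-voom, 17 with no filter on low counts and 0 without KT replicates 2 and 3; over all genes 75 fell, and 288, 135, 404 and 2 under these settings. In Sik-targeted against KT libraries it was 24, and 2 without KT replicates 2 and 3 (all genes that fell 890 and 61). In sgSik1 against KT libraries it was 10, and 21 with DESeq2, 17 with limma-voom, 18 with no filter, 18 with the groups compared alone, and 0 without KT replicates 2 and 3 (all genes 173, and 657, 458, 820, 496 and 0). In sgSik1-3 against KT libraries it was 8, and 17 with DESeq2, 15 with no filter, 21 with the groups compared alone (20 fell and 1 rose), and 0 without KT replicates 2 and 3 (all genes 176, and 725, 739, 994 and 3). With no filter the median log2 change of all genes was -0.62 in Lkb1-deleted and -0.84 in Sik-targeted libraries. With 1 library left out at a time the counts were 0 to 9, 12 to 25, 1 to 16 and 0 to 13 in these 4 comparisons, and 0 throughout for Lkb1-deleted against Sik-targeted and sgSik1-3 against sgSik1 libraries; where a group kept 1 library, that library was taken to vary like the others. The causes were not tested, except that leaving libraries out and comparing fewer groups changes the number of libraries.

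With the replicate number as a block the counts were 6, 23, 5 and 2 (all genes that fell 28, 623, 102 and 48). Same-numbered libraries deviated with correlations of -0.413 to 0.224, not all above 0.1, so the numbers were not taken to pair samples.

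On total counts in place of TMM sizes, the summed CPM of all 60 members moved by more than the SD of the group to 344 in Lkb1-deleted replicate 3, 137, 303 and 413 in sgSik1, 234 and 252 in sgSik1-3, and 665, 899 and 973 in KT replicates 1 to 3.

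No called log2 change of a named member turned its sign. Of 162 log2 changes of named members over the 6 comparisons, 40 that were not called turned under some setting, all at an adjusted p of 0.409 or more. Of the 75 checked in full, Ift140 in Lkb1-deleted libraries was 0.12 without KT replicates 2 and 3 and ranged from -0.35 to 0.10 over the fits lacking 1 library. Ift20 ranged from -0.14 to 0.36 in Lkb1-deleted and -0.11 to 0.17 in Sik-targeted libraries, where it was -0.017 without KT replicates 2 and 3. Rsph3b ranged from -0.26 to 0.54 and Rsph9 from -0.89 to 0.16 in Lkb1-deleted libraries. Members with few counts outside KT are limited by depth.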
